A study of Mus musculus with 8 samples.

Results

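The Sox genes examined here were Sox1, Sox2, Sox4, Sox9, Sox10, Sox11, Sox17, Sox18 and Sox21, 9 of the 20 Sox genes and of 21631 protein-coding genes on chromosomes 1 to 19 and X in the RefSeq gene table (GRCm38.p6, the same assembly as mm10). They were taken as a named list of Sox genes. For each gene, 3 kinds of feature were collected around its gene body widened by 5 kb on both sides: chromatin loops with an anchor there, topologically associating domains (TADs) touching it, and CTCF peaks in it. Chromatin loops were read from Hi-C maps of mouse embryonic stem (ES) cells, lens epithelium and lens fiber, and CTCF peaks from ChIP-seq of both lens compartments. ES cells were the wild-type line v6.5 mESC, a single line grown without feeders in the presence of LIF. Lens epithelium and lens fiber were micro-dissected from CD-1 mice at P0.5 (postnatal day 0.5), with 30 lenses pooled in each of 2 Hi-C replicates per compartment, and no gene had been altered in any of the groups. The 2 Hi-C replicates of each cell type had been merged before loops and TADs were called, and each lens compartment had 1 CTCF list. Each value therefore stood for 1 list per cell type, without replicates, and differences between lists carried no test. Hi-C and CTCF lists hold no expression values, so the labelled cell types were not checked against marker genes here.

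Sox proteins are transcription factors that share a DNA-binding domain, the HMG box, with the testis-determining factor Sry. They bend DNA on binding in the minor groove and commonly act together with partner factors such as Pax6 or POU proteins. Sox2, a group B gene, maintains pluripotency in ES cells and acts with Pax6 in lens induction, and Sox1, of the same group, is required for fiber cell elongation and for γ-crystallin expression. Sox21, also of group B, mostly acts as a repressor in neural progenitors. Sox4 and Sox11 of group C act in progenitors and maturing neurons, and Sox11 also in eye development. Sox9 and Sox10 of group E act in cartilage and in the neural crest, and Sox17 and Sox18 of group F in endoderm and blood vessels. CTCF is the zinc-finger protein that, with cohesin, holds many loop anchors together.

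The sequences just before Sox1, Sox2 and Sox11 are shown because the loops of these 3 genes in lens are compared below with those of the other members. RefSeq promoter windows (GRCm38.p6) were matched for 5 of the 9 members, namely Sox1, Sox2, Sox4, Sox11 and Sox21. The 250 bases before each start are printed 5′ to 3′ along the gene, and capitals mark every match to AGGNGGC, a stretch of the CTCF core motif, on either strand. On the other strand the match reads GCCNCCT, and matches did not overlap. The windows were chr8:12395269-12395518 on the plus strand for Sox1, chr3:34649745-34649994 on the plus strand for Sox2 and chr12:27342719-27342968 on the minus strand for Sox11.
Sox1: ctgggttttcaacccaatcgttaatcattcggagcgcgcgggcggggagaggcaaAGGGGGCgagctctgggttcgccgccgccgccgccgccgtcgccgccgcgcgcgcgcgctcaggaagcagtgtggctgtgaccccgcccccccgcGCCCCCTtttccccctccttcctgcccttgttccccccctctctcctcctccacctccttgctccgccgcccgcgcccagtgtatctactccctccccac
Sox2: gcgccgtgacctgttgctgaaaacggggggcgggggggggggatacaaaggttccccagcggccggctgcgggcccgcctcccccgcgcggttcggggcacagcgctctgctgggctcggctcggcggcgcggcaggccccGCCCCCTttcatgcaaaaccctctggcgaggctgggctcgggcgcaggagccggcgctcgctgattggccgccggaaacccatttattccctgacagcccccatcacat
Sox11: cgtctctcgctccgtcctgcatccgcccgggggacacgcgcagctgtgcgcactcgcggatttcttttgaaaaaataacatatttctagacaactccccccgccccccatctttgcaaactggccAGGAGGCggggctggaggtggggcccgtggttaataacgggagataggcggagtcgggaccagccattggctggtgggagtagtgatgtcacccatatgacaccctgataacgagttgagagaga

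Of all 32851 such windows in the table, 25% held the stretch, with a median GC content of 52.4% and a median of 6 CpG. The Sox1 window had 71.2% GC, 29 CpG and 2 matches. The Sox2 window had 72.0% GC, 27 CpG and 1 match. The Sox11 window had 58.0% GC, 17 CpG and 1 match. Sox4 had 50.8% GC with 0 matches and Sox21 had 65.2% GC with 1 match. The Sox1 and Sox2 windows were thus far richer in CpG than the median window, and a match describes letters only. The nearest lens CTCF summits lay 2.08 kb (epithelium) and 2.12 kb (fiber) from the Sox2 start, outside the printed window. For Sox1 the nearest summits lay 203.3 kb (epithelium) and 3.69 kb (fiber) from the start, and for Sox11 they lay 415.4 and 121.0 kb from it. Loop anchors nonetheless reached over these windows: 2 ES cell, 2 epithelial and 3 fiber anchors covered that of Sox2, and 2, 1 and 1 covered that of Sox1. The Sox11 window was covered by 2 epithelial anchors and by 0 in the other 2 lists.

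The whole lists held 8459 loops and 3604 TADs in ES cells, 8005 loops, 1796 TADs and 16433 CTCF peaks in lens epithelium, and 7682 loops, 2641 TADs and 23868 CTCF peaks in lens fiber. The depth of the Hi-C maps was not used here, and precision was taken from the observed contacts of each loop, whose list medians were 56, 51 and 63 in ES cells, epithelium and fiber. Exact 95% Poisson intervals on these contacts cover counting error only. A loop missing from a list was not called there, which does not show that contacts were absent. Loops had been called with anchors of 5, 10 or 25 kb, and larger anchors reach a gene more easily. In ES cells 3350 of the 8459 loops had 5 kb anchors, against 1467 of 8005 in epithelium and 1226 of 7682 in fiber.

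Together the 9 Sox genes had 45 of the 24146 loops listed, 20 of them in ES cells, 13 in epithelium and 12 in fiber. Loops reached 6 of the 9 genes in ES cells, 5 in epithelium and 6 in fiber. Among all protein-coding genes, 37.3% had a loop in ES cells, 36.2% in epithelium and 34.5% in fiber. Among the 5278 protein-coding genes as long as the members (1804 to 9578 bp), the shares were 27.6%, 24.1% and 22.9%. The 5 or 6 of 9 Sox genes with a loop stood above either background in each list by this overlap rule. Without 25 kb anchors, 6, 3 and 4 of the 9 had a loop in ES cells, epithelium and fiber. With anchor midpoints, 6, 4 and 4 did. The background was not recomputed for these counts. Of the 11 other Sox genes, with lengths up to 953863 bp, 7 had a loop in ES cells, 2 in epithelium and 3 in fiber. The 9 genes were chosen with earlier results of these data known, and no test was made. Sox2, Sox4 and Sox9 had 2 to 4 loops in every list. Sox10 and Sox18 had 0 in every list. Sox1, Sox17 and Sox21 had more loops in ES cells (5, 4 and 3) than in epithelium (1, 0 and 0) or fiber (2, 1 and 1). Sox11 was the member with loops in epithelium (2) and in neither other list.

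**Figure D1:**
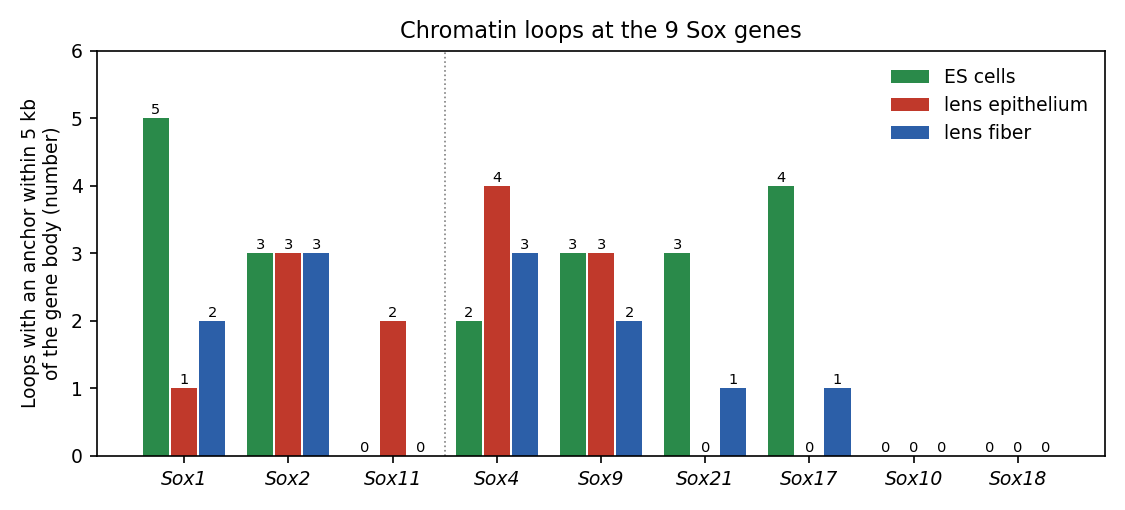
Number of loops (y axis) with an anchor within 5 kb of each Sox gene (x axis) in ES cells (green), lens epithelium (red) and lens fiber (blue). The dotted line parts Sox1, Sox2 and Sox11 from the other 6 genes, and Sox10 and Sox18 have 0 loops in all 3 lists.

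The loops of the Sox genes were large: the medians were 710 kb in ES cells, 650 kb in epithelium and 400 kb in fiber, beside 220, 250 and 270 kb over the whole lists. Sizes were not matched for anchor width, and the ES cell median includes 4 loops over 3 Mb at Sox17 and Sox21. Observed contacts were set against the donut expectation, the contacts predicted from the ring of pixels around the loop. The median ratio at the Sox genes was 5.75 in ES cells, 2.55 in epithelium and 2.77 in fiber. These medians are not on equal footing, because 11 of the 20 ES cell loops had 5 kb anchors while 0 of the 25 lens loops did, and the list median of the ratio in ES cells was 3.89 at 5 kb and 2.45 at 25 kb anchors. In epithelium 10 of the 13 loops had 25 kb anchors, and in fiber 6 of the 12.

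**Figure D2:**
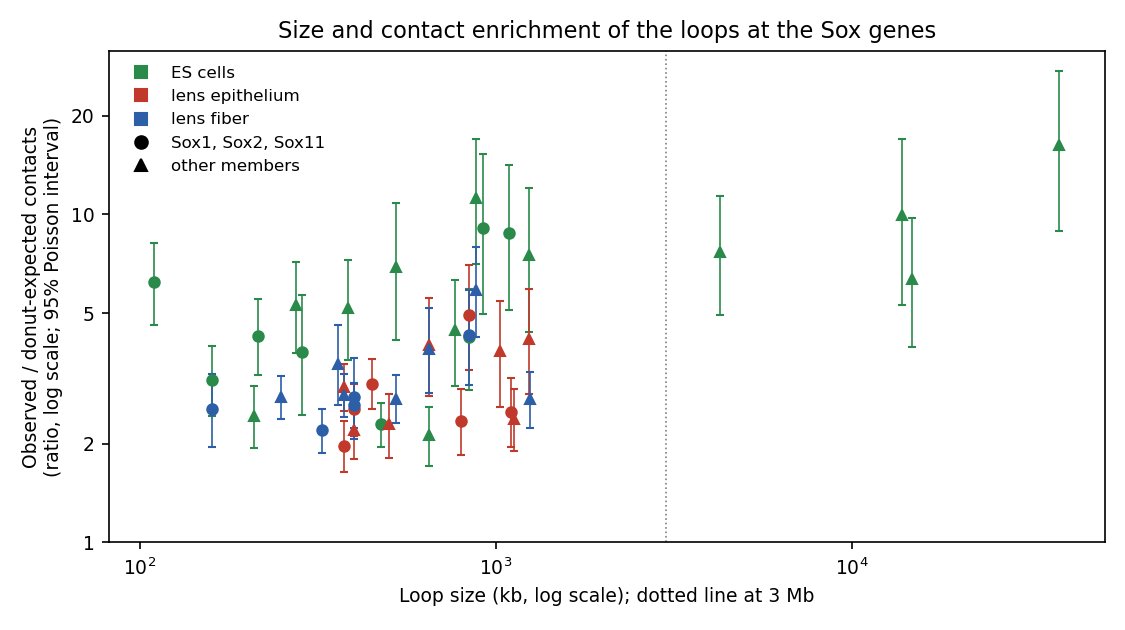
Ratio of observed to donut-expected contacts (y axis, log scale, bars give the 95% Poisson interval) against loop size in kb (x axis, log scale) for the 45 loops of the Sox genes, by cell type (color) and gene set (circles Sox1, Sox2 and Sox11, triangles the other 6). All 4 points to the right of the dotted line at 3 Mb are ES cell loops of Sox17 and Sox21.

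Sox1 (chr8:12395519-12399555) had 5 loops in ES cells, 1 in epithelium and 2 in fiber. In ES cells, 2 of them ran towards lower coordinates over 1085 kb, to an anchor at the collagen genes Col4a1 and Col4a2, and over 920 kb, to Rab20. They had 17 and 14 observed contacts, at 8.79 (95% interval 5.12 to 14.1) and 9.1 (4.97 to 15.3) times the expected. Their largest FDR (a q-value) was 5.19e-03 and 2.30e-02. The other 3 ran to higher coordinates over 160, 215 and 285 kb, with 68, 57 and 24 contacts. The ratios of these shorter loops were 3.13, 4.26 and 3.8, and their largest FDR 7.76e-06, 2.24e-08 and 6.23e-02. In the lens lists the long loops to Col4a1, Col4a2 and Rab20 were not called. On the same side, a loop of medium reach had an anchor at Sox1 in both of them. It spanned 375 kb in epithelium, with 128 contacts at 1.97 times the expected (1.64 to 2.34), and 400 kb in fiber, with 51 contacts at 2.78 (2.07 to 3.66). Both ratios lay below their list medians, of 2.5 for 25 kb anchors in epithelium and 3.01 for 10 kb anchors in fiber. The largest FDR (a q-value) was 0.077 in epithelium and 1.02e-03 in fiber. ES cells had a similar loop of 380 kb, with 80 contacts at 2.36 (1.87 to 2.94), whose anchor stopped 15.5 kb short of the gene and so outside the window. The 160 kb loop to the higher side was listed in ES cells and in fiber, where it had 61 contacts at 2.55 (1.95 to 3.27), the anchors differing by 2.5 kb.

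The TAD next to Sox1 also lay on different sides. In ES cells Sox1 lay inside a 170 kb TAD to its higher side, with the border 5.52 kb from the gene. In epithelium and in fiber an identical 435 kb TAD on the lower side ended 0.519 kb from the gene, and epithelium had a further TAD of 945 kb around it. Lens fiber had a CTCF peak 3.69 kb below Sox1, at chr8:12391683-12391989. Its fold enrichment of 5.39 was higher than that of 27.9% of the fiber peaks. No epithelial peak lay within 5 kb, the nearest being 203.2 kb away. A loop of 605 kb in ES cells and 610 kb in both lens lists passed over the gene, joining the border of the 435 kb TAD on the far side to the end of the 160 kb loop.

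Sox2 (chr3:34649995-34652461) had 3 loops in each list. A loop of 840 kb to higher coordinates had its anchors at the same 10 kb pixels in all 3 lists. It had 33 contacts in ES cells, 31 in epithelium and 37 in fiber, at 4.22 (2.91 to 5.93), 4.95 (3.36 to 7.02) and 4.28 (3.01 to 5.9) times the expected. The 3 counting intervals overlapped, and in both lens lists CTCF peaks lay at both anchors. ES cells had a 110 kb loop to higher coordinates, with 50 contacts at 6.22 (4.61 to 8.2), that had no counterpart within 25 kb in either lens list. In ES cells Sox2 is known to depend on a distal control region downstream of the gene, and whether this anchor holds it was not tested. Both lens lists had a 400 kb loop to lower coordinates, with 120 contacts in epithelium at 2.55 (2.11 to 3.05) and 159 in fiber at 2.62 (2.23 to 3.06), which had no counterpart within 25 kb in ES cells. A loop of 475 kb in ES cells and 450 kb in epithelium, at 2.3 and 3.05 times the expected, led to the same anchor on the higher side, and fiber had a 440 kb loop there with its near anchor 7.54 kb from the gene, at 3.88 times the expected. In fiber the remaining loop was 325 kb long, with 172 contacts at 2.2 times the expected, and its far anchor lay at the noncoding gene Gm38505.

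In ES cells a 125 kb TAD began 4.99 kb below Sox2 and closely framed the 110 kb loop, whose ends lay within 7.5 kb of it. Neither lens list had a TAD within 5 kb of Sox2, with the nearest border 9.99 kb away in both. In fiber that border belonged to a TAD with its corner 2.5 kb from the 400 kb loop. Sox2 and Sox9 were the members with a CTCF peak in both lens lists. The Sox2 peak, summit about 2 kb below the gene (chr3:34647725-34648115 in epithelium), had a fold enrichment of 9.74 in epithelium, above 95.7% of that list, and of 8.2 in fiber, above 74.2%. Among loops of up to 3 Mb, 3 in epithelium, 2 in fiber and 0 in ES cells passed over Sox2, and longer loops were not counted. In both lens lists a passing loop of 1250 kb joined the far anchor of the 400 kb loop to that of the 840 kb loop, with 77 contacts in epithelium at 2.38 (1.88 to 2.97) and 117 in fiber at 2.77 (2.29 to 3.32). In lens, Sox2 thus had loops to both ends of a larger loop that itself ran past the gene.

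Sox11 (chr12:27334268-27342718) had 2 loops in epithelium, called with 25 kb anchors. They left the gene in opposite directions, over 800 kb to lower coordinates with 77 contacts at 2.35 (1.85 to 2.93), and over 1100 kb to Dcdc2c with 69 contacts at 2.5 (1.95 to 3.17). Both ratios were close to the epithelial median of 2.5 for 25 kb anchors. The largest FDR (a q-value) was 1.56e-02 for the 800 kb loop and 2.27e-03 for the 1100 kb loop. In ES cells the nearest anchor lay 132.3 kb from Sox11, and in fiber 357.3 kb. The far anchors of these loops were themselves joined in every list by a 1900 kb loop that passed over the gene. That loop had 62 contacts in ES cells at 2.46 (1.89 to 3.16), 29 in epithelium at 4.27 (2.86 to 6.14) and 39 in fiber at 4.05 (2.88 to 5.53), with 25 kb anchors in ES cells and 10 kb anchors in both lens lists. The outer contact was thus listed in all 3 cell types, and contacts of Sox11 with both its ends in epithelium. With all FDR below 0.01, the 800 kb loop to the lower end would not be kept. In fiber a 2000 kb TAD framed the same stretch, with Sox11 854.3 kb from its nearer border, and neither other list had a TAD at the gene. No CTCF peak lay within 5 kb of Sox11. The nearest was 415.4 kb away in epithelium and 112.4 kb in fiber.

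**Figure D3:**
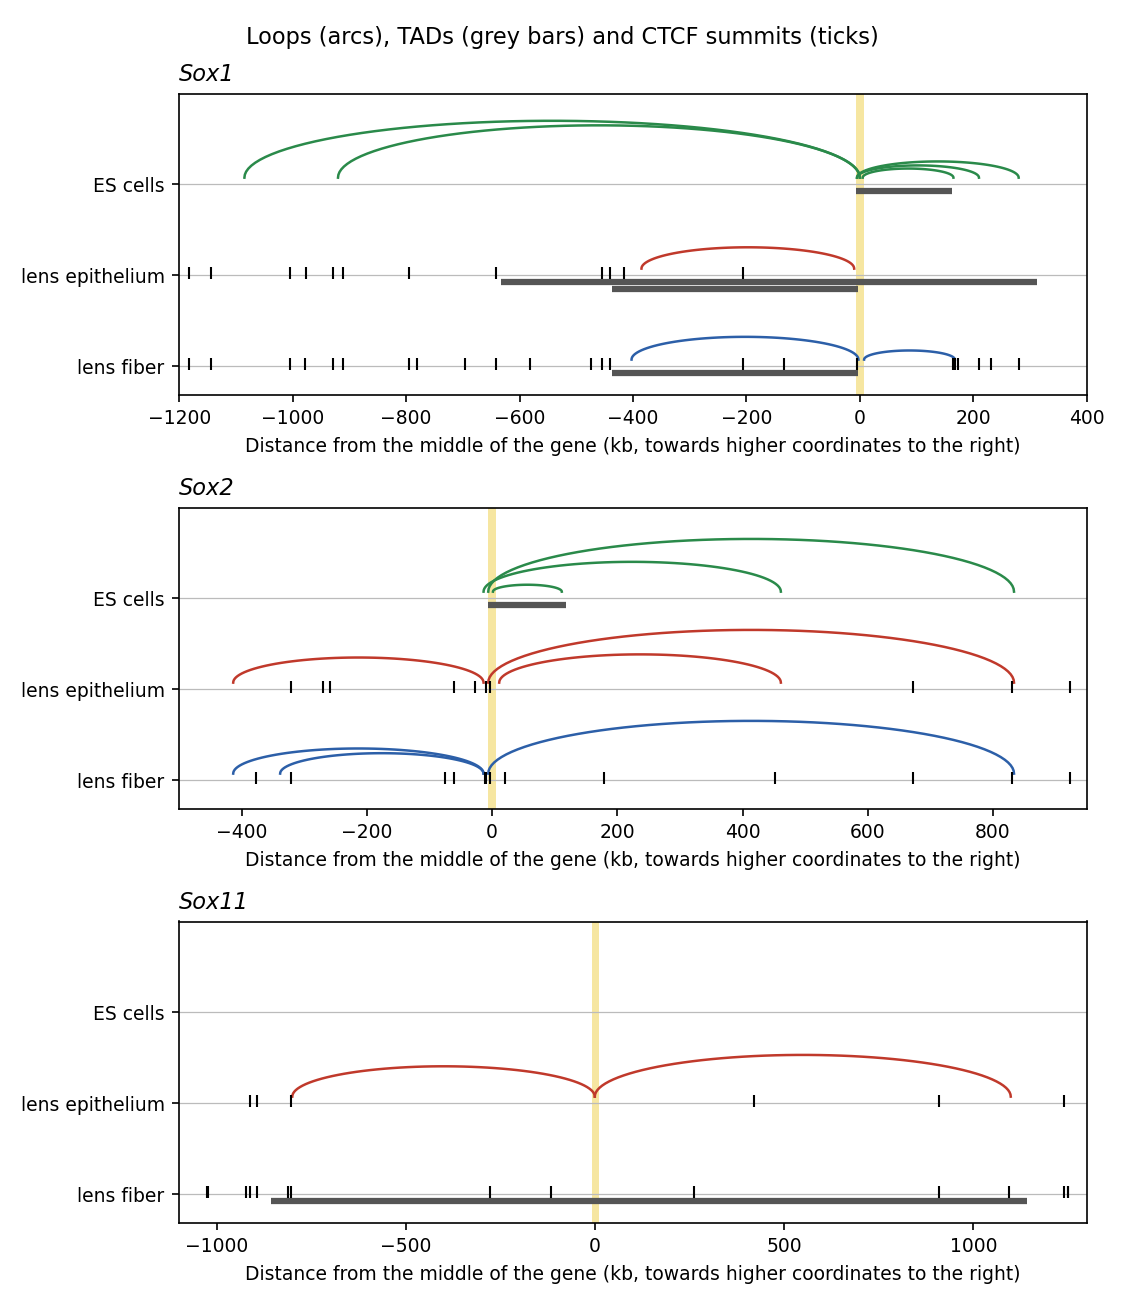
Loops (arcs), TADs (grey bars) and CTCF summits (black ticks, lens lists only, as CTCF of ES cells was not used here) at Sox1, Sox2 and Sox11, by list, along the distance in kb from the middle of the gene. The shaded band is the gene body widened by 5 kb, and the Sox2 arc of 840 kb recurs in all 3 lists while the Sox11 arcs appear in epithelium.

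Sox4 (chr13:28948919-28953699) had 2 loops in ES cells, 4 in epithelium and 3 in fiber. A 650 kb loop to an anchor within Cdkal1 was listed in all 3, with 96, 35 and 47 contacts at 2.12, 4.01 and 3.9 times the expected, the first from 25 kb anchors and the others from 10 kb anchors. An 880 kb loop to a more distant part of Cdkal1 was listed in ES cells, with 22 contacts at 11.2 (7.04 to 17.0), and in fiber, with 42 contacts at 5.89 (4.24 to 7.96). In epithelium an 875 kb counterpart, with 13 contacts at 10.6 (5.65 to 18.2), had its 5 kb anchor 6.30 kb from the gene, just outside the window. The anchors in ES cells and fiber were 5 and 10 kb wide, where the list medians were 3.89 and 3.01. Loops to the lower side were found in lens: 400, 500 and 1025 kb in epithelium and 525 kb in fiber. ES cells had 0 at Sox4 on that side, and 0 within 25 kb of these. The lens loops on that side had 25 kb anchors that overlapped the gene body without holding its start. None of them remains in a count without 25 kb anchors. In fiber, the 525 and 880 kb loops had a TAD corner within 25 kb of both ends, and the other Sox4 loops in any list had none. Fiber had a 535 kb TAD ending across Sox4, its corner 12.5 kb from the 525 kb loop, and an 880 kb TAD starting 1.30 kb from it, whose corner coincided with the 880 kb loop to 0.0 kb. Epithelium had an 885 kb TAD with the same start, and in ES cells the nearest border lay 1031 kb away. A CTCF peak of 6.64-fold enrichment lay 4.29 kb above Sox4 in fiber, whereas the nearest epithelial peak was 258.7 kb away.

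Sox9 (chr11:112782210-112787757), the campomelic dysplasia gene, has a wide gene-poor region with distal enhancers around it. It had 3, 3 and 2 loops, and those on both sides recurred across the lists. A loop of 385 kb in ES cells and 375 kb in both lens lists ran to the noncoding gene 2610035D17Rik, with 34, 142 and 174 contacts at 5.18 (3.59 to 7.24), 2.98 (2.51 to 3.51) and 2.82 (2.42 to 3.27). Anchors were 5 kb wide in ES cells and 25 kb in lens. TADs of 375, 380 and 380 kb had their corners within 7.5 kb of it in all 3 lists. A loop of 1240 kb to lower coordinates in ES cells and epithelium, and of 1250 kb in fiber, had 17, 31 and 103 contacts. CTCF peaks lay at both anchors of both loops in both lens lists. The peak next to Sox9 had a fold enrichment of 7.96 in epithelium and 9.27 in fiber. ES cells also had a 770 kb loop to Slc39a11. Epithelium had a loop of 1125 kb, and fiber a similar loop of 1100 kb that ended 7.21 kb from Sox9.

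**Figure D4:**
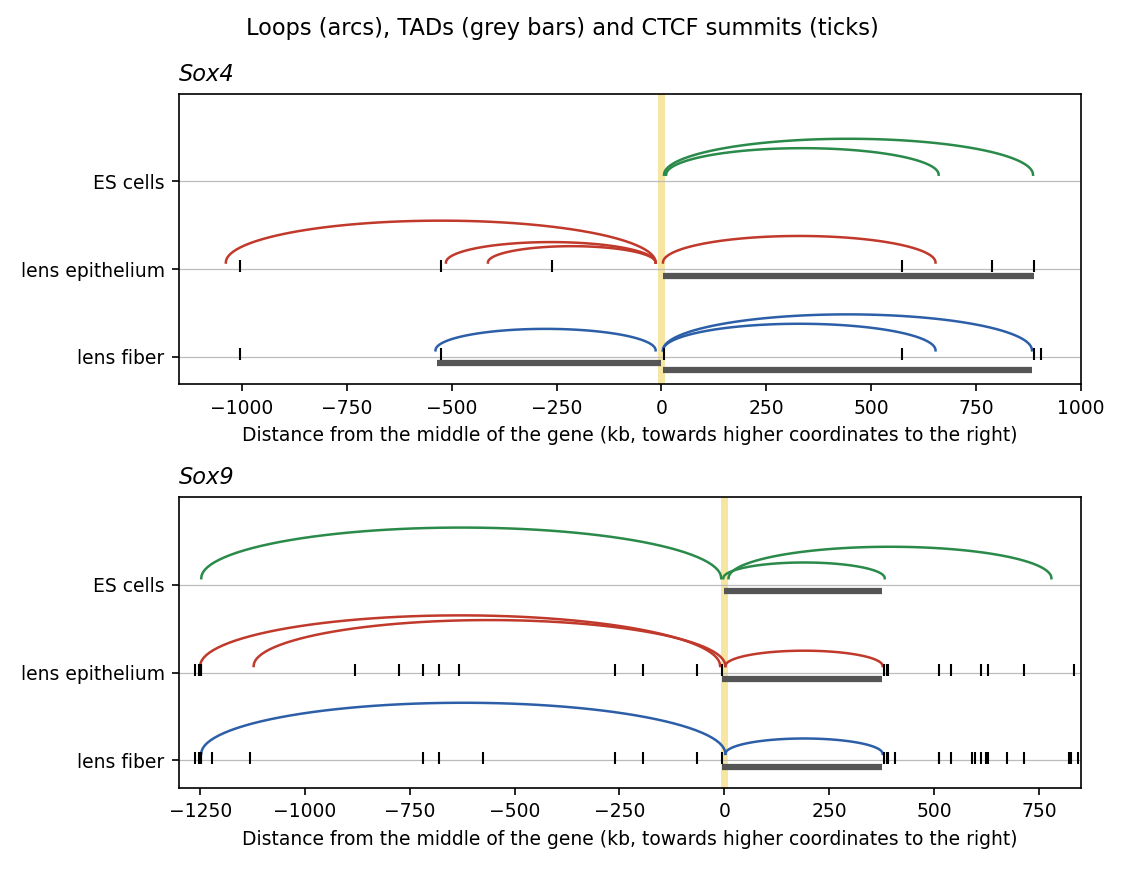
Loops (arcs), TADs (grey bars) and lens CTCF summits (black ticks) at Sox4 and Sox9, by list, along the distance in kb from the middle of the gene. At Sox9 the arcs to both sides recur in the 3 lists, and at Sox4 arcs to lower coordinates appear in the lens lists.

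Sox17 (chr1:4490928-4497426) and Sox21 (chr14:118233233-118237030) held all 4 Sox loops longer than 3 Mb, and all 4 were in ES cells. Sox17 was joined over 14750 kb to an anchor at Tfap2b, with 21 contacts at 6.37 (3.95 to 9.74), and over 38200 kb to one at Pou3f3, with 14 contacts at 16.3 (8.92 to 27.4). Sox21 was joined over 4250 kb to an anchor at Zic2 and Pcca, with 24 contacts at 7.68 (4.92 to 11.4), and over 13775 kb to one at Pou4f1, with 13 contacts at 9.95 (5.3 to 17.0). Tfap2b, Pou3f3, Zic2 and Pou4f1 all encode transcription factors of embryonic development, a feature picked out after the loops were seen. The 4 loops rest on 13 to 24 contacts each, with wide intervals, and no lens loop had both anchors within 25 kb of theirs. Loops longer than 3 Mb made up 3.72% of the ES cell list, 1.05% of the epithelial list and 1.07% of the fiber list, and 4 of the 20 Sox loops in ES cells against 0 of 13 and 0 of 12 in lens.

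Sox17 had 2 shorter loops in ES cells, of 275 kb with 41 contacts at 5.28 (3.79 to 7.17) and of 525 kb to Rgs20 with 19 contacts. Fiber had 1 loop of 250 kb to Mrpl15, with 172 contacts at 2.77 (2.38 to 3.22), whose 25 kb anchor lay 2.58 kb from the gene. Loops of 240 kb, with their anchors 12.5 kb from those of the fiber loop, were listed in ES cells (64 contacts at 3.32) and in epithelium (34 contacts at 3.37). Those 2 loops began 22.6 kb from Sox17 and so were not counted as its own, and no list had a TAD at the gene. Sox21 had a further loop of 210 kb in ES cells, with 85 contacts, and 1 of 360 kb to Abcc4 in fiber, with 52 contacts at 3.51 (2.62 to 4.6). Similar loops that passed over Sox21 were listed in ES cells, over 390 kb with 51 contacts at 3.42, and in epithelium, over 380 kb with 41 contacts at 3.21, where the near anchor lay 13.2 kb from the gene. A 240 kb TAD began 2.97 kb above Sox21 in ES cells. In lens the gene lay inside nested TADs, of 415 and 735 kb in epithelium and of 395 and 655 kb in fiber. CTCF peaks were 19.2 and 25.6 kb away from Sox17 and Sox21 in epithelium, and 19.1 and 25.5 kb in fiber.

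Sox10 (chr15:79154913-79164490) and Sox18 (chr2:181669837-181671640) had 0 loops. The nearest anchors to Sox10 lay 64.9 kb away in ES cells and 60.5 kb in both lens lists, and to Sox18 48.4 kb away in all 3. Sox10 had CTCF peaks just outside the window, 6.08 kb away in epithelium and 6.01 kb in fiber, and an 80 kb TAD in fiber that ended 4.91 kb from it. A 450 kb loop of ES cells passed over Sox10. Sox18 lay inside a TAD of 100 kb in ES cells and of 80 kb in fiber, with the nearest peak 88.5 kb away in epithelium and 7.19 kb in fiber.

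**Figure D5:**
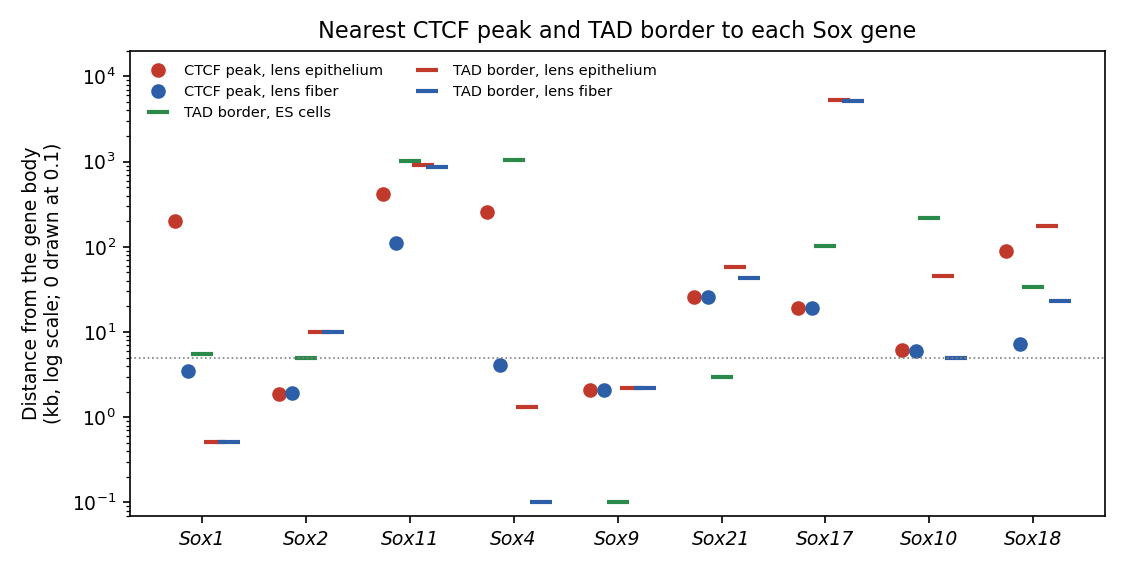
Distance in kb (y axis, log scale, 0 drawn at 0.1) from each Sox gene body (x axis) to the nearest CTCF peak (circles, lens lists) and the nearest TAD border (bars), with cell type by color and a dotted line at 5 kb. Sox2 and Sox9 have circles of both lens lists below the line, and every mark of Sox11 lies above 100 kb.

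Over all members, a TAD touched 5 of the 9 Sox genes in ES cells, 4 in epithelium and 7 in fiber, beside 43.4%, 22.8% and 31.6% of all protein-coding genes. A TAD border lay within 5 kb of 3 Sox genes in ES cells, 3 in epithelium and 4 in fiber. The shares with a border were 22.2%, 10.8% and 15.8% of all genes and 14.2%, 5.27% and 8.28% of genes as long as the members. Sox9 was the member with a border within 5 kb in all 3 lists. A CTCF peak lay at 2 of the 9 genes in epithelium (Sox2 and Sox9) and at 4 in fiber (Sox1, Sox2, Sox4 and Sox9). These counts stood beside 31.2% and 45.9% of all genes, and 18.9% and 34.0% of genes as long as the members, and are read as near the background. Each of these peaks lay outside the gene body, and fiber lists more peaks than epithelium.

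Anchors and CTCF peaks were then compared loop by loop. Both anchors held a peak of the same cell type in 3 of the 13 epithelial Sox loops and 5 of the 12 fiber loops, beside 15.7% and 39.1% of all loops in these lists. These shares were not matched for anchor width, and wider anchors hold a peak more easily. Anchors of 25 kb belonged to 10 of the 13 epithelial Sox loops against 3332 of 8005 listed. In fiber they belonged to 6 of the 12 against 3293 of 7682. The epithelial loops were the 840 kb loop of Sox2 and the 375 and 1240 kb loops of Sox9. In fiber the same 2 Sox9 partners, the Sox2 loop, the 880 kb loop of Sox4 and the 250 kb loop of Sox17 had peaks at both anchors. Neither anchor held a peak in 6 epithelial and 2 fiber loops. A TAD corner of the same list lay within 25 kb of both ends of 3 of the 20 ES cell loops, 1 of the 13 epithelial loops and 5 of the 12 fiber loops, beside 21.3%, 14.5% and 20.8% of all loops.

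Sharing of loops between lists was counted when the midpoints of both anchors lay within 10 kb. Of the 13 epithelial Sox loops, 5 had a partner in fiber and 4 in ES cells, and 7 had none. Of the 12 fiber loops, 6 had a partner in epithelium and 6 in ES cells, and 4 had none. Of the 20 ES cell loops, 14 had none in lens. Over the whole lists, 57.0% of the ES cell loops, 35.8% of the epithelial and 34.4% of the fiber loops had no partner in either other list. The 5 ES cell loops with a partner in both lens lists were those of Sox2 (840 kb), Sox4 (650 and 880 kb) and Sox9 (385 and 1240 kb). A partner was sought in the whole list, so that it could lie just outside the window of the gene. Within 25 kb the loops without a partner numbered 12 in ES cells, 4 in epithelium and 1 in fiber, the last being the 325 kb loop of Sox2. Shares over the whole lists were computed within 10 kb and not within 25 kb, so these counts cannot be set beside them.

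The loops of Sox1, Sox2 and Sox11 were then set beside those of the other 6 members. Together the 3 genes had 8 loops in ES cells, 6 in epithelium and 5 in fiber, or 2.67, 2.0 and 1.67 loops per gene. The other 6 had 12, 7 and 7, or 2.0, 1.17 and 1.17 per gene. In epithelium all 3 genes had a loop, against 2 of the other 6 (Sox4 and Sox9), while in fiber 2 of the 3 and 4 of the 6 had a loop. The largest FDR (a q-value) of the single epithelial Sox1 loop was 0.077. With all FDR below 0.01, the 3 genes had 4 epithelial loops, and all members together had 11, at 4 genes. The contrast in epithelium also rested on loops with 25 kb anchors. Without them, 1 of the 3 genes and 2 of the other 6 had an epithelial loop, at 0.333 loops per gene in both sets. In ES cells that count gave 7 loops at the 3 genes and 7 at the other 6, and in fiber 3 and 3. With all anchors, the numbers per gene overlapped in every list, with 0 to 5 loops against 0 to 4 in ES cells, 1 to 3 against 0 to 4 in epithelium, and 0 to 3 against 0 to 3 in fiber. Genes are not replicates of a condition, and no test was made. The median ratio of the 3 genes was 4.24 in ES cells, 2.52 in epithelium and 2.62 in fiber, beside 6.63, 2.98 and 2.82 for the other 6. These medians mix anchor widths and loop sizes and are not on equal footing. In ES cells 6 of the 8 loops of the 3 genes had 5 kb anchors, against 5 of the 12 of the other 6. There 0 of the 8 loops exceeded 3 Mb, against 4 of the 12, which had ratios of 6.37 to 16.3. CTCF peaks numbered 1 and 1 in epithelium, and 2 and 2 in fiber, for the 3 and the 6 genes.

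The nearest member by summed difference over 5 counts (loops in 3 lists and CTCF peaks in 2) was Sox9 for Sox2, with a difference of 1, and Sox17 for Sox1, with a difference of 4. Sox11 was nearest to Sox10 and to Sox18, with a difference of 2 from each, and these 2 genes had 0 in all 5 counts. Within group B, Sox2 differed by 6 from Sox1 and by 7 from Sox21, and Sox1 by 5 from Sox21. Within group C, Sox11 differed by 8 from Sox4.

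The 11 Sox genes outside the list had 17 loops in ES cells, 8 in epithelium and 5 in fiber, at 7, 2 and 3 genes. Their lengths ran to 953863 bp, so counts per gene are not comparable with those of the members. Sox6, which acts in muscle and cartilage, had 4, 5 and 3 loops, and Sox13 had 2, 3 and 1. Sox3, the remaining gene of the Sox1 and Sox2 subgroup, had 2, 0 and 1. Sox14, a group B repressor like Sox21, had 4 loops in ES cells and 0 in lens, and 2 of the 4 exceeded 3 Mb, the longest spanning 30125 kb. Sox7, the third gene of group F, had 3 loops in ES cells and 0 in lens, and Sox8 and Sox15 each had 1 in ES cells. Sox5, Sox12, Sox30 and Sry had 0 in all 3.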

How the data were processed

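Hi-C reads had been aligned by the authors with BWA to mm10, filtered on mapping quality and merged over both replicates of a cell type, and loops and TADs had been called with HiCCUPS and Arrowhead at default parameters (juicer_tools 2.13.06 in the file headers). The deposited loop lists give the observed contact count of each loop pixel, the expected contacts from its surroundings and an FDR, a q-value, for each. CTCF peaks had been called by the authors with MACS2, and the deposited lists give a fold enrichment over local background, a score and −log10 p and q. The labels list 1 CTCF sample per compartment, whereas the study's methods describe biological replicates for CTCF, and whether the list pools them is not given in the sources used here.

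From these lists, overlaps of at least 1 bp with RefSeq gene bodies (GRCm38.p6) widened by 5 kb were counted, with observed over donut-expected contacts and exact Poisson intervals (Python 3.11.15, pandas 2.3.3, scipy 1.17.1, numpy 2.4.6, matplotlib 3.10.9). Loop size is the distance between anchor midpoints. Overlap counting was tested on simulated data. The named genes were the 9 members, the genes at their far anchors, and up to 5 other Sox genes with a loop. Sox15 and Sox8 were named beyond this. Members, lists and rules were chosen with earlier results of these data known. The genes as long as the members, the counterpart loops, the passing loops of up to 3 Mb, the TAD corners, the share of loops without a partner, and the other 6 members without 25 kb anchors were added after the data were seen. Alternatives were other widenings (0, 10 and 25 kb), anchor midpoints, an FDR below 0.01, lists without the loops of 25 kb anchors or without those over 3 Mb, stricter TADs and peaks, and other sharing distances. No fit, test or batch term was possible with 1 list per cell type.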

Additional observations from a re-analysis of the deposited data

How the results depend on the processing

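Each of 21 counts was recomputed under its alternatives, giving 102 values, of which 75 stayed within 1.5 times the count reported and 27 did not. No loop count, TAD count or peak count can be given without a replicate, because replicates had been merged into 1 list per cell type. No paired analysis was possible because the results come from no test and each cell type has 1 merged list.

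With anchor midpoints in place of any overlap, the 9 Sox genes had 6 loops in epithelium and 6 in fiber, and Sox1, Sox2 and Sox11 had 3 and 2. Without 25 kb anchors the 9 genes had 3 loops in epithelium, at 3 genes, and 6 in fiber, and Sox1, Sox2 and Sox11 had 1 and 3. The other 6 members then had 7 loops in ES cells, 2 in epithelium and 3 in fiber, an alternative chosen after seeing the data. The epithelial loops of Sox11 are lost in that count. With gene bodies not widened, ES cells had 13 loops, of which 5 at Sox1, Sox2 and Sox11, and CTCF peaks numbered 0 for the 9 genes and for these 3 in both lens lists. Widening by 25 kb gave 5 epithelial and 12 fiber peaks, of which 2 and 5 at Sox1, Sox2 and Sox11. With the stronger 50% of the list, these 3 genes had 1 fiber peak. Where the TAD had to hold the gene body, 3 members had a TAD in ES cells and 4 in fiber, and TADs of at least 200 kb touched 2 in ES cells. Within 25 kb, 9 epithelial Sox loops were shared with fiber, a count for which no share over the whole list was computed.

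Loops of 13 to 24 contacts have intervals spanning more than a factor of 2, and loops of unequal anchor width cannot be compared by their ratios.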
